A study of Mus musculus with 9 samples.

Results

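The 10 transcripts described here are protein-coding genes of the mouse mitochondrial genome: mt-Nd1, mt-Nd2, mt-Nd4, mt-Nd5 and mt-Nd6 of respiratory complex I, mt-Cytb of complex III, mt-Co1, mt-Co2 and mt-Co3 of complex IV, and mt-Atp6 of complex V. They were taken by name from the 55401 genes of the deposited count table, where the mitochondrial chromosome has 37 rows. Liver RNA of 9 male mice, 3 in each of 3 groups, had been sequenced with the QuantSeq 3′ kit, which makes libraries from polyadenylated RNA and counts reads at the 3′ ends of transcripts. STAM + Atglistatin mice (replicates 4, 5 and 6) were injected under the skin with 200 µg of streptozotocin, a toxin of the insulin-producing beta cells, when 2 days old, and from 4 weeks of age ate a high-fat diet containing Atglistatin, an inhibitor of adipose triglyceride lipase, for 4 weeks. STAM mice (replicates 1, 2 and 3) had the same injection and the same diet without Atglistatin. Chow mice (replicates 7, 8 and 9) had neither streptozotocin nor Atglistatin and ate chow, so injection and diet cannot be told apart in STAM against chow. The groups follow the sample titles. A separate treatment label gives streptozotocin to the chow mice and none to the STAM mice, against the titles. Which libraries are STAM and which are chow therefore rests on the titles, and so do all 3 comparisons, including STAM + Atglistatin against STAM. The strain is not given in the sources used here.

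Mitochondrial DNA encodes 13 proteins, each a core subunit of a respiratory complex, and the remaining subunits are made from nuclear genes. Both strands are transcribed as long precursors, which are cut at the tRNAs that lie between most messenger RNAs, and the messengers then receive short poly(A) tails, which in some cases complete the stop codon. On the mitochondrial genome of GRCm38, the plus strand holds mt-Nd1 (2751 to 3707), mt-Nd2 (3914 to 4951), mt-Co1 (5328 to 6872), mt-Co2 (7013 to 7696), mt-Atp6 (7927 to 8607), mt-Co3 (8607 to 9390), mt-Nd4 (10167 to 11544), mt-Nd5 (11742 to 13565) and mt-Cytb (14145 to 15288), and the minus strand holds mt-Nd6 (13552 to 14070). None of them has an intron. The liver is rich in mitochondria, where fatty acid oxidation feeds electrons into complexes I and III.

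The messengers fell into those with many counts and those with almost none. mt-Co2 and mt-Co3 had 0 counts in all 9 libraries, and mt-Atp6 had 7 counts, spread over 4 libraries (3 counts in STAM + Atglistatin, 2 in STAM and 2 in chow). These 3 genes make, in that order, the subunit that takes electrons from cytochrome c, a further core subunit of complex IV, and the subunit of ATP synthase through which protons pass. A count of 0 in 79.4 units of 1e6 counts allows a share of up to 0.0378 per 1e6 counts, from 3 counts over all libraries and for counting error only. mt-Atp8 and mt-Nd4l, which are the remaining messengers without counts, also had 0. The other 7 members had between 450 counts, for mt-Nd6, and 3188937 counts, for mt-Nd4, over the 9 libraries.

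The 3 members with 0 to 7 counts are repeated almost letter for letter in nuclear DNA. An annotated stretch of chromosome 1 (GRCm38, minus strand) holds copies of mitochondrial genes. Gm28661 (24614885 to 24615565) matched the first 681 of the 684 bases of mt-Co2 with 0 differences, Gm28437 (24613189 to 24613971) matched the first 783 of the 784 bases of mt-Co3 with 0 differences, and Gm10925 (24613974 to 24614651) matched the first 678 of the 681 bases of mt-Atp6 with 0 differences. The copy rows themselves held 14, 1 and 9 counts over the 9 libraries. The last 60 bases of each messenger, the part nearest to where 3′ reads start, are shown with the matching end of its copy, because the pairs cannot be separated by sequence there. Sequences are 5′ to 3′ from GENCODE M21 transcripts of GRCm38, and capitals mark the stop codon or the base of it that the gene holds, which the annotated copy lacks.
mt-Co2: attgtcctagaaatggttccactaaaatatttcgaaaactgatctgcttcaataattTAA
Gm28661: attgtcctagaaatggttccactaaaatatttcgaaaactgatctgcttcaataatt
mt-Co3: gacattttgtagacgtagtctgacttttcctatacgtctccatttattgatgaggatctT
Gm28437: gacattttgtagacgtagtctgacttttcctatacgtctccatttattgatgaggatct
mt-Atp6: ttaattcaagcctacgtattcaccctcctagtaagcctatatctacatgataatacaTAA
Gm10925: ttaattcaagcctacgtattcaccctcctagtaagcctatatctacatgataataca

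The annotated 3′ ends of 3 members that were counted are shown next. They are mt-Nd5, which changed in both STAM comparisons, its antisense neighbour mt-Nd6, and mt-Nd4, which had the most counts. Between the annotated end of mt-Nd5 and the next annotated feature on its strand lie 579 bases, against 1 base for mt-Nd4. On the opposite strand, the rest of mt-Nd6 (up to base 14070) lies within those 579 bases. Where the RNAs themselves end was not tested. Capitals mark the 14 bases in which mt-Nd5 and mt-Nd6 overlap on opposite strands (bases 13552 to 13565 of the mitochondrial genome), and the single T with which mt-Nd4 ends.
mt-Nd5: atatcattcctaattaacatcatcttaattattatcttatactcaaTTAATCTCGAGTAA
mt-Nd6: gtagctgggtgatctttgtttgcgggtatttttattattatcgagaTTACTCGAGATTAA
mt-Nd4: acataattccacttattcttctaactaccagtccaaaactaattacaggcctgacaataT

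Every run of 50 bases in each messenger was looked up in all nuclear transcripts of GENCODE M21, on both strands. All 635 windows of mt-Co2 were found there, as were 99.9% of those of mt-Co3 and 99.5% of those of mt-Atp6, against 0.0% for mt-Nd1, mt-Nd6 and mt-Cytb, 7.61% for mt-Nd5 and 8.19% for mt-Nd2. mt-Nd4 and mt-Co1 lay between, at 62.2% and 51.1%. In mt-Nd4 the shared stretch was its first 876 bases, a copy of which is Gm28439, and 0 of its last 200 windows were shared. In mt-Co1 all of the last 200 windows were shared, and it had 124731 counts. Gm29216, which matches its last 492 bases with 6 differences, had 15 counts, and the division of reads between the pair is unknown. The sources used here do not say how the counting treated reads that map to several places, and its part in the counts of 0 was not tested. Outside the members, mt-Nd3 shared 98.0% and had 2052 counts, and mt-Atp8 shared 0.0% and had 0 counts. Only annotated nuclear transcripts were searched, so copies outside them would be missed. The 43 bases in which mt-Atp8 overlaps mt-Atp6 are fewer than the 50 of a window.

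**Figure D1:**
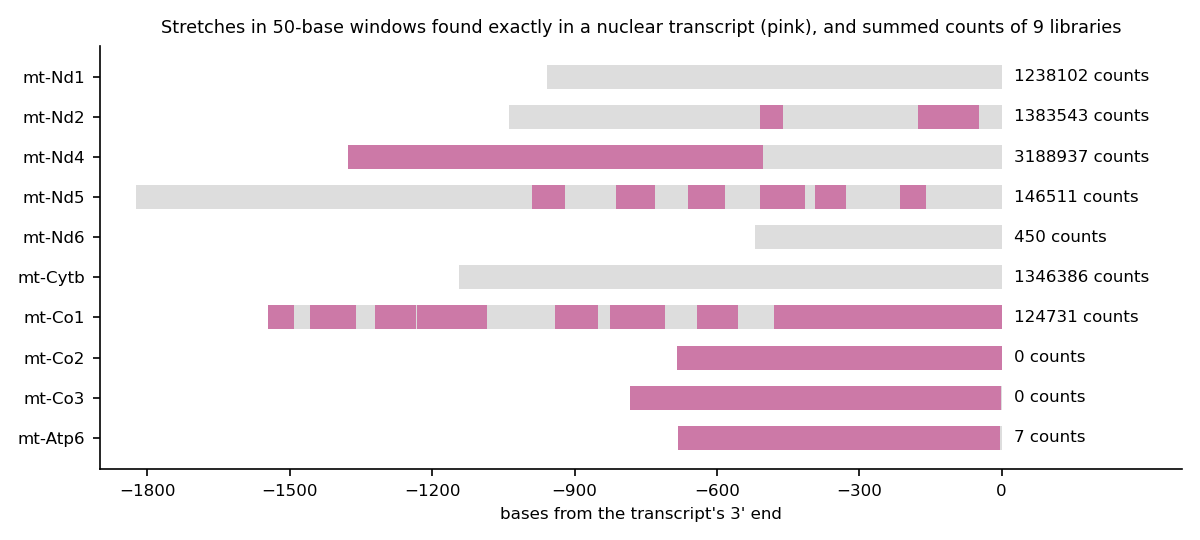
Each bar is 1 messenger drawn to scale, in bases counted back from its 3′ end. Pink marks stretches covered by 50-base windows found exactly in a nuclear transcript, and the number at the right is its summed count over 9 libraries. mt-Co2, mt-Co3 and mt-Atp6 are pink almost throughout and have 0, 0 and 7 counts, whereas mt-Nd4 is pink only away from its 3′ end. mt-Co1 is pink over its last 479 bases and has 124731 counts.

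The members together made up more of the STAM libraries than of the others. Their share of all counts was 8.62, 9.71 and 8.73% in STAM + Atglistatin livers (mean 9.02 ± 0.603 SD), 11, 11.1 and 11.6% in STAM livers (11.2 ± 0.308) and 7.82, 7.30 and 8.75% in chow livers (7.95 ± 0.735). Every STAM library was above every library of both other groups, and the STAM + Atglistatin and chow libraries overlapped. The members held 99.668 to 99.903% of all counts on the mitochondrial chromosome, so the share describes these transcripts and hardly any others. Within it mt-Nd4 alone held 43.7 ± 3.51% of the members' counts in STAM + Atglistatin, 43.8 ± 2.49% in STAM and 40.4 ± 2.25% in chow. Most of the rest came from mt-Nd1, mt-Nd2 and mt-Cytb, so the sum describes mainly these abundant members. In tissue RNA such as this, fewer cells of a type and less RNA per cell cannot be told apart.

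Library totals were 7.41 to 9.91 units of 1e6 counts, and the low-count filter kept 12660 genes. The 8 hepatocyte markers were all present and summed to 81240 to 82748 CPM (counts per 1e6, with TMM-scaled library sizes) in STAM + Atglistatin, 57311 to 66485 in STAM and 105435 to 116848 in chow. Alb, serum albumin, was the largest part of that sum, with 45651 ± 672 CPM in STAM + Atglistatin, 29430 ± 2537 in STAM and 60271 ± 3641 in chow. Tested one by one against an adjusted p of 0.05, the markers did not move as 1 group in STAM + Atglistatin against STAM. There 4 were above 0 and 4 below. Alb alone was called higher, where 1.04% of all tested genes were. Apob, the main protein of very-low-density lipoprotein, alone was called lower, where 0.742% were. It had 463 ± 51.0 CPM in STAM + Atglistatin against 802 ± 66.9 in STAM. In STAM against chow 7 of 8 markers were below 0, as were 50.1% of all tested genes. Of the 8, 5 were called lower, against 1.99% of all tested genes. In STAM + Atglistatin against chow all 8 were below 0, as were 50.6% of all tested genes, and 7 were called lower, against 1.97%. The part of these markers in the members' values was not tested. Macrophage markers (8 of 8 with counts) summed to 342 to 473 CPM in STAM + Atglistatin, 383 to 433 in STAM and 302 to 402 in chow. The 4 markers of muscle, a tissue rich in mitochondria, summed to at most 10.9 CPM, and adipocyte markers were at most 4.21 CPM with Lep at 0. The 8 genes of a list for RNA quality and handling summed to 1171 to 1368 CPM in STAM + Atglistatin, 2088 to 2284 in STAM and 1007 to 1662 in chow, most of it Malat1. Other genes of that list set single chow libraries apart: Hspa1b, a heat shock protein, had 8.32, 47 and 155 CPM in chow replicates 7, 8 and 9, and Egr1, an immediate early transcription factor, had 35.5, 12.5 and 12.7 CPM. Chow replicate 7 also stood apart in its stellate cell and fibroblast markers, with 702 CPM against 436 and 447 in the other chow libraries.

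**Figure D2:**
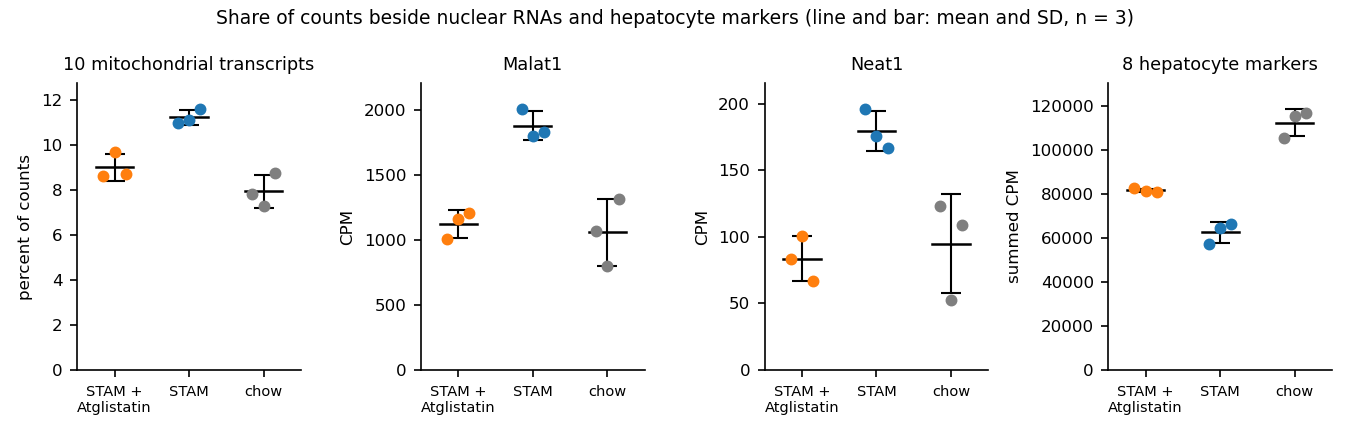
Points are single mice in 3 groups, with group mean and SD (n = 3). The panels give the percent of counts from the 10 mitochondrial transcripts, the CPM of the nuclear RNAs Malat1 and Neat1, and the summed CPM of 8 hepatocyte markers. The first 3 quantities are highest in the STAM libraries, where the hepatocyte sum, of which Alb is the largest part, is lowest. Single markers such as Apob do not follow that sum.

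STAM + Atglistatin against STAM asked how the lipase inhibitor changed the liver of streptozotocin-injected, fat-fed mice. Of the 7 tested members, 1 passed an adjusted p of 0.05, mt-Nd5, which fell. Over all 12660 tested genes 1.79% passed, and 0.742% were lower. All 7 members had log2 fold changes below 0, as did 50.1% of all tested genes, and their median was -0.32 against -0.001 for all tested genes. Of these, mt-Nd1 was at -0.09 ± 0.10 and mt-Nd6 at -0.01 ± 0.37. Over 16 alternatives mt-Nd6 ran from -0.2 to 0.23, so its sign was not stable. Members on the same strand are cut from shared precursors, so their signs need not be independent of each other. In 4 of the 7 every STAM + Atglistatin library lay below every STAM library, a separation that 8.45% of all tested genes showed. At an unadjusted p of 0.05, 5 of the 7 were lower, against 5.06% of all tested genes. The STAM libraries also enter STAM against chow, so the 2 sets of values are not independent of each other.

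mt-Nd5, a proton-pumping subunit in the membrane arm of complex I, had 1506, 1563 and 1597 CPM in STAM + Atglistatin livers, against 2549, 2304 and 2634 CPM in STAM livers. The 2 groups did not overlap, and the Atglistatin libraries lay within 100 CPM of each other. Its log2 fold change was -0.68 ± 0.12 SE (edgeR quasi-likelihood test, Benjamini-Hochberg adjusted p = 0.00454), so its level in treated livers was 0.623 times that in STAM livers. mt-Nd5 passed in each of 16 alternative analyses, with adjusted p of 6.09e-06 to 0.0332.

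mt-Co1, the catalytic core of complex IV, where oxygen is reduced, had 1435, 1333 and 1363 CPM with Atglistatin, against 1959, 1744 and 1914 CPM in STAM. Its groups were separate as well, but the change of -0.44 ± 0.12 on the log2 scale missed the threshold (edgeR adjusted p = 0.0907) and passed in 6 of 16 alternatives. mt-Nd2, a further proton-pumping subunit of complex I, stood at 14432, 15109 and 15330 CPM with Atglistatin, against 22243, 18667 and 20571 CPM in STAM. It too was lower in every treated library without passing, at -0.45 ± 0.14 (edgeR adjusted p = 0.165), and it passed in 5 of 16 alternatives. mt-Cytb, the haem-bearing catalytic subunit of complex III, had 15203, 16376 and 15800 CPM with Atglistatin, against 18351, 18917 and 21960 CPM in STAM, with a change of -0.32 ± 0.11 on the log2 scale (edgeR adjusted p = 0.235) and separate groups.

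The remaining members of complex I overlapped between the groups. mt-Nd4, the third proton-pumping subunit, had 36120, 45562 and 34813 CPM with Atglistatin, against 42919, 49564 and 52073 CPM in STAM. Replicate 5 of the treated group lay inside the STAM range, and the log2 fold change was -0.31 ± 0.13 (edgeR adjusted p = 0.353). mt-Nd1, at the joint of the membrane and matrix arms of complex I, had 16694, 15565 and 15751 CPM with Atglistatin, against 16264, 16358 and 18461 CPM in STAM. Its change of -0.09 ± 0.10 was within its SE of 0 (edgeR adjusted p = 0.861). mt-Nd6, the only protein-coding gene on the opposite strand of mitochondrial DNA, had 3.71, 6.10 and 4.86 CPM with Atglistatin, against 4.31, 4.01 and 6.48 CPM in STAM, a change of -0.01 ± 0.37 on the log2 scale (edgeR adjusted p = 0.997). Its SE was the largest of the 7 members. Its last 14 bases are those of mt-Nd5 read on the other strand. The rest of mt-Nd6 lies opposite the 579 bases that follow the annotated end of mt-Nd5. Whether the counting used strand is not stated, so reads of the 2 genes may not have been told apart in the overlap. The same would hold along mt-Nd6 for any mt-Nd5 RNA that runs past its annotated end, which was not tested.

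**Figure D3:**
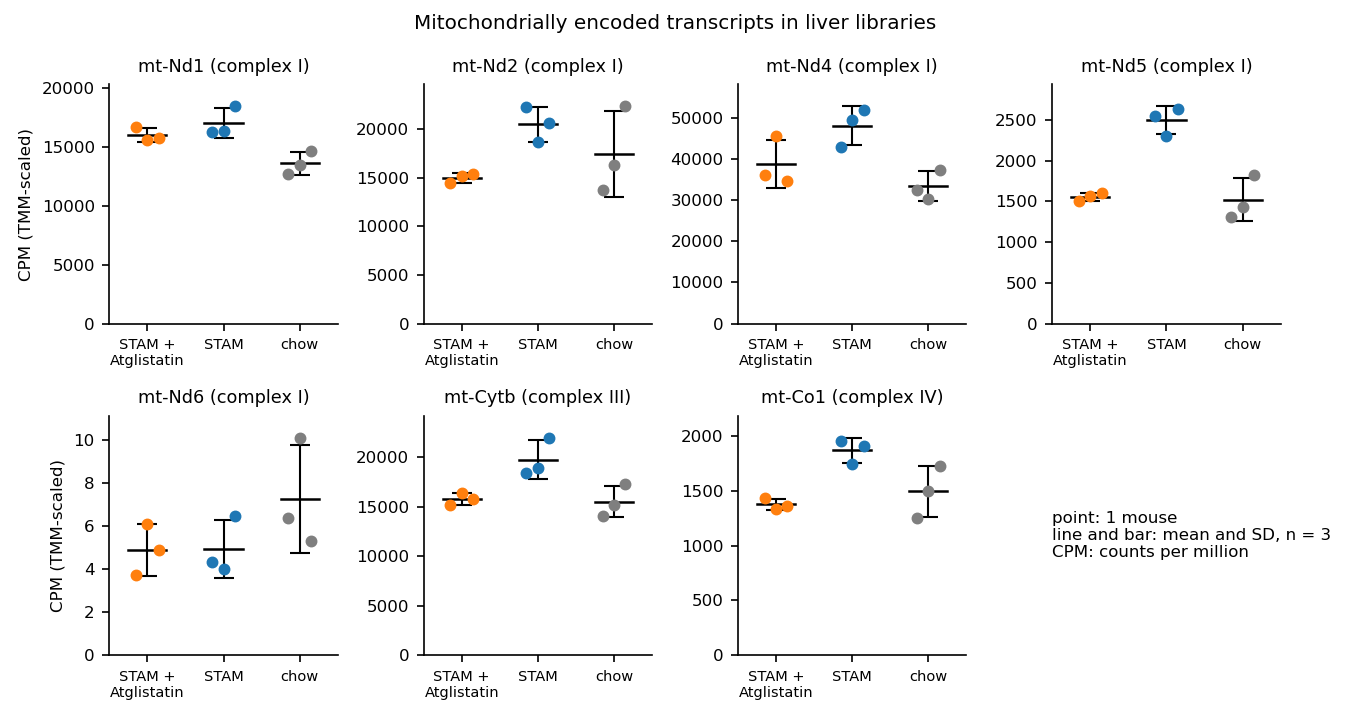
CPM of the 7 tested members in each mouse, with group mean and SD (n = 3), axes from 0. mt-Nd5 is at 1506 to 1597 CPM in STAM + Atglistatin, 2304 to 2634 in STAM and 1311 to 1821 in chow, whereas mt-Nd6 overlaps in all 3 groups.

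STAM against chow asked how injection and high-fat diet together changed the liver. Of the 7 tested members 2 passed, mt-Nd5 and mt-Nd4, and both rose. Over all tested genes 3.94% passed, and 1.95% were higher. The median log2 fold change of the 7 was 0.32 against -0.001 for all tested genes. In 5 of the 7 every STAM library lay above every chow library, which 10.6% of all tested genes did, and the same number were higher at an unadjusted p of 0.05, against 7.24%.

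mt-Nd5 had 2549, 2304 and 2634 CPM in STAM livers, against 1311, 1431 and 1821 CPM in chow livers, so the groups did not overlap. The log2 fold change was 0.71 ± 0.12 (edgeR adjusted p = 0.00187), and it passed in each of 16 alternatives (adjusted p = 1.12e-06 to 0.0148). mt-Nd4 had 42919, 49564 and 52073 CPM in STAM, against 32451, 30372 and 37481 CPM in chow, with no overlap. Its log2 fold change of 0.53 ± 0.13 (edgeR adjusted p = 0.0212) did not pass without STAM replicate 2 (0.51, adjusted p = 0.0881), without STAM replicate 3 (0.47, adjusted p = 0.08) or without chow replicate 8 (0.46, adjusted p = 0.112), with a change of about the same size in each.

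The other members with separate groups were higher in every STAM library without passing in edgeR. mt-Nd1 had 16264, 16358 and 18461 CPM in STAM, against 12704, 13506 and 14647 CPM in chow, a change of 0.32 ± 0.10 on the log2 scale (edgeR adjusted p = 0.11). mt-Cytb had 18351, 18917 and 21960 CPM in STAM, against 14095, 15191 and 17236 CPM in chow, at 0.35 ± 0.11 (edgeR adjusted p = 0.104). mt-Co1 had 1959, 1744 and 1914 CPM in STAM, against 1255, 1503 and 1727 CPM in chow, at 0.32 ± 0.12 (edgeR adjusted p = 0.187). Of the 16 alternatives, mt-Nd1 passed in 3 (library totals, DESeq2 and limma-voom), mt-Cytb in 2 (library totals and DESeq2) and mt-Co1 in 1 (library totals). The chow library nearest to STAM was replicate 9 in all 3 of these members.

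mt-Nd2 and mt-Nd6 overlapped between STAM and chow. mt-Nd2 had 22243, 18667 and 20571 CPM in STAM, against 13747, 16246 and 22330 CPM in chow, where replicate 9 was above all 3 STAM libraries, and its log2 fold change was 0.23 ± 0.14 (edgeR adjusted p = 0.505). mt-Nd6 had 4.31, 4.01 and 6.48 CPM in STAM, against 6.37, 10.1 and 5.31 CPM in chow, and was the only member with a value below 0, at -0.56 ± 0.37 (edgeR adjusted p = 0.547).

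STAM + Atglistatin against chow had 0 of 7 members past the threshold with edgeR, 0 with DESeq2 and 0 with limma-voom, where 4.08% of all tested genes passed with edgeR. At an unadjusted p of 0.05, 1 member was higher, mt-Nd1, against 7.46% of all tested genes. It had 16694, 15565 and 15751 CPM in STAM + Atglistatin, against 12704, 13506 and 14647 CPM in chow, and its log2 fold change was 0.23 ± 0.10 (edgeR adjusted p = 0.303). When scaled by library totals without TMM it passed, at 0.32 (adjusted p = 0.0233). It was also the only one whose groups did not overlap, while 9.58% of all tested genes were separate in the higher direction. The median log2 fold change of the 7 was 0.03, with mt-Nd5 at 0.03 ± 0.12 and mt-Cytb at 0.03 ± 0.11 (edgeR adjusted p above the threshold for both). mt-Nd2 was at -0.22 ± 0.14, mt-Nd4 at 0.22 ± 0.13, mt-Nd6 at -0.57 ± 0.37 and mt-Co1 at -0.12 ± 0.12, all with overlapping groups. A p that misses the threshold does not show that the levels were alike.

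**Figure D4:**
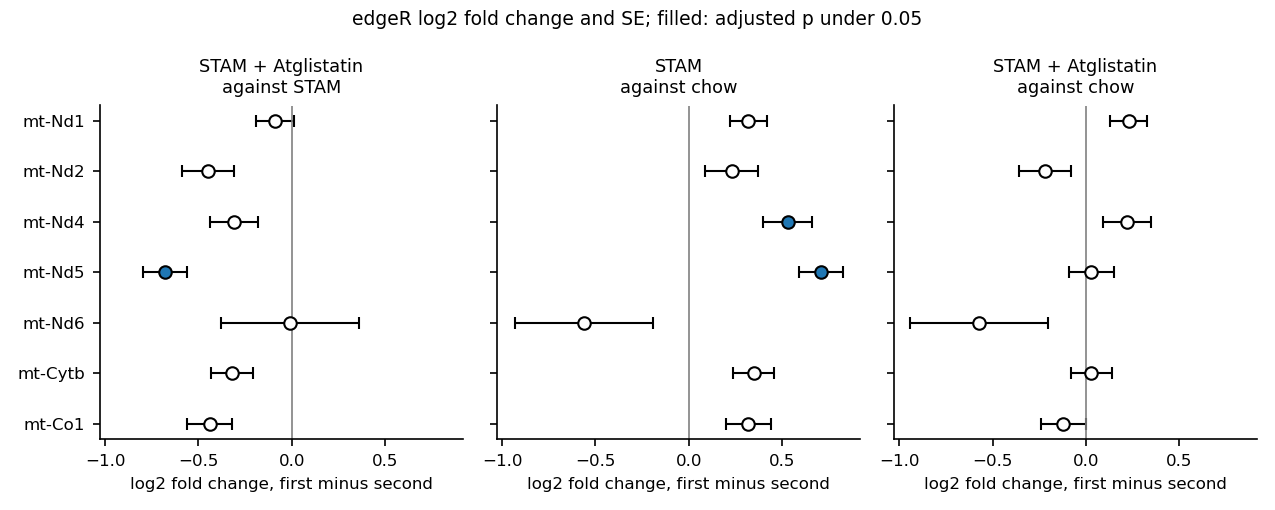
edgeR log2 fold changes of the 7 tested members in 3 comparisons, the first-named group minus the second, with SE bars. Filled points passed an adjusted p of 0.05. mt-Nd5 lies at -0.68 in the first comparison, 0.71 in the second and 0.03 in the third.

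Ratios of counts within a library, which need no scaling between libraries, were used to compare the members with each other. Counts of mt-Nd5 per count of mt-Nd1 were 0.0902, 0.100 and 0.101 in STAM + Atglistatin, 0.157, 0.141 and 0.143 in STAM, and 0.103, 0.106 and 0.124 in chow. STAM was above both other groups in every library, and STAM + Atglistatin was below chow in every library. For mt-Co1 the ratio to mt-Nd1 was 0.0860, 0.0856 and 0.0865 in STAM + Atglistatin, 0.120, 0.107 and 0.104 in STAM, and 0.0988, 0.111 and 0.118 in chow. Here STAM and chow overlapped, and the treated libraries lay below all 6 others.

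The treated group was lowest for mt-Nd2 and mt-Cytb as well. mt-Nd2 per mt-Nd1 was 0.936 ± 0.0621 in STAM + Atglistatin, 1.21 ± 0.139 in STAM and 1.27 ± 0.229 in chow (SD, n = 3 each). mt-Cytb per mt-Nd1 was 0.989 ± 0.0718 in STAM + Atglistatin, 1.16 ± 0.0306 in STAM and 1.14 ± 0.0353 in chow. In both, the treated libraries lay below all others, and STAM and chow overlapped. mt-Nd4 per mt-Nd1 was 2.43 ± 0.428 in STAM + Atglistatin, 2.83 ± 0.196 in STAM and 2.45 ± 0.178 in chow, with the treated group overlapping both others. Of 15 such comparisons (5 ratios, 3 pairs of groups), none could go below p = 0.1 in a two-sided exact permutation test of 3 against 3 libraries, and 10 reached it, with an adjusted p of 0.15 over the 15. The ratios were computed after the levels were seen, and all 5 divide by mt-Nd1, so they are not independent of each other. mt-Nd1 was the only member with every STAM + Atglistatin library above every chow library (log2 fold change 0.23 ± 0.10 SE). The levels of mt-Nd2, mt-Cytb and mt-Co1 overlapped between those 2 groups.

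**Figure D5:**
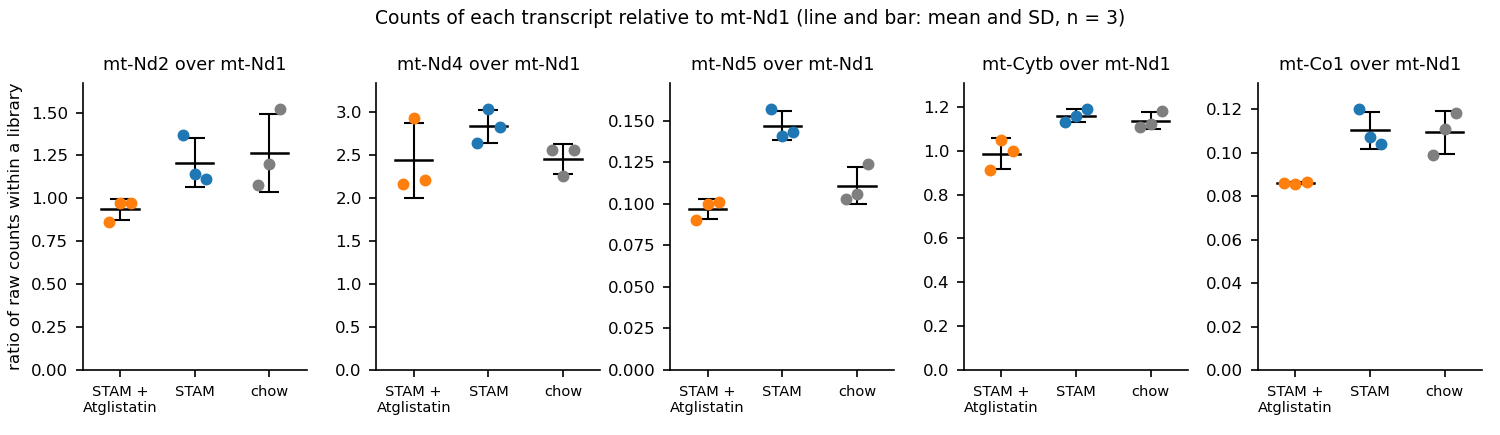
Raw counts of 5 members divided by the mt-Nd1 counts of the same library, 1 point a mouse, with group mean and SD (n = 3) and axes from 0. In the mt-Co1 panel the STAM + Atglistatin points lie at 0.0856 to 0.0865, below all points of STAM and chow.

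As shares of the members' counts, mt-Nd5 took 1.76 ± 0.125% in STAM + Atglistatin, 2.28 ± 0.154% in STAM and 1.83 ± 0.0883% in chow, and mt-Nd1 took 18.2 ± 1.67% in STAM + Atglistatin, 15.5 ± 0.257% in STAM and 16.5 ± 0.982% in chow. Per kilobase of transcript, mt-Nd4 had the highest mean level in every group, with 28180 CPM per kilobase in STAM + Atglistatin, 34968 in STAM and 24263 in chow. mt-Nd1 came next in STAM + Atglistatin, with 16722 CPM per kilobase against 14409 for mt-Nd2, and their libraries did not overlap there. In STAM and chow mt-Nd2 came next, with 19744 and 16802 CPM per kilobase, but overlapped mt-Nd1. mt-Co1 and mt-Nd5 were far lower per kilobase and overlapped each other in all 3 groups, and mt-Nd6 was last with 9.42 CPM per kilobase in STAM + Atglistatin, 9.5 in STAM and 14 in chow. A kit that reads 3′ ends gives counts that need not grow with length, so this scale lowers long transcripts.

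Of the 8 genes in the handling list, 2 passed in the same direction as mt-Nd5 in both comparisons with STAM, and others did not run that way. Over all tested genes 0.742% were called lower in STAM + Atglistatin against STAM and 1.95% higher in STAM against chow. All 8 listed genes were below 0 in STAM + Atglistatin against STAM, but in STAM against chow 4 were above 0 and 4 below, with a median of -0.41. Hspa1b was called lower there by edgeR, and Hspa1b and Egr1 were called lower in STAM + Atglistatin against chow. Calls in the lower direction numbered 1 with edgeR, 0 with DESeq2 and 0 with limma-voom in STAM against chow. In STAM + Atglistatin against chow they numbered 2 with edgeR, 1 with DESeq2 and 0 with limma-voom. Of all tested genes edgeR called 1.99 and 1.97% lower in these comparisons. Malat1 and Neat1 are long non-coding RNAs that stay in the nucleus. Malat1 had 1003, 1160 and 1209 CPM in STAM + Atglistatin, 2005, 1797 and 1830 CPM in STAM, and 1070, 798 and 1312 CPM in chow. It was lower in STAM + Atglistatin than in STAM, with a change of -0.74 ± 0.15 on the log2 scale (edgeR adjusted p = 0.00966) and higher in STAM than in chow by 0.82 ± 0.15 (edgeR adjusted p = 0.00242). Neat1 passed both comparisons too, at -1.10 ± 0.23 (edgeR adjusted p = 0.0118) and 0.92 ± 0.22 (edgeR adjusted p = 0.0253). Malat1 did not pass the first of these comparisons without STAM + Atglistatin replicate 4 (adjusted p = 0.083), replicate 5 (0.0503) or STAM replicate 1 (0.0744). Neat1 did not pass it without STAM + Atglistatin replicate 4 (adjusted p = 0.0741), replicate 6 (0.0744) or STAM replicate 1 (0.0812), nor the second without STAM replicate 1 (0.12), 2 (0.0734) or 3 (0.0548) or chow replicate 8 (0.0592). Whether RNA handling or the share of nuclear and mitochondrial RNA in the extracts has a part in the members' values was not tested.

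Nuclear genes listed for the same complexes (I, III, IV and V), most of them subunits, gave 1 call in all 3 comparisons together. None of the 74 tested genes on these lists passed in STAM + Atglistatin against STAM by edgeR, DESeq2 or limma-voom. At an unadjusted p of 0.05, 3 were higher, against 5.09% of all tested genes, and none lower. The median log2 fold change of the 74 was 0.06. Of the 74, 55 were above 0, as were 49.9% of all tested genes, where all 7 members were below 0 (mt-Nd6 at -0.01 ± 0.37). The difference between nuclear and mitochondrial subunits was not tested. In STAM against chow 0 of 74 passed by those 3 tools, with a median of 0.06. There 4 were higher at an unadjusted p of 0.05, against 7.24% of all tested genes. STAM + Atglistatin against chow had 1 call of 74, in the higher direction, where 2.1% of all tested genes were called. It was Ndufa5 of complex I, with 327 ± 38.4 CPM in STAM + Atglistatin against 242 ± 1.11 CPM in chow. Its change was 0.43 ± 0.12 on the log2 scale (edgeR adjusted p = 0.0456). That call was lost with only the 2 groups in the fit (adjusted p = 0.096) and without any of 7 single libraries, namely STAM + Atglistatin replicates 4 (0.136) and 5 (0.214), STAM replicates 1 (0.0787), 2 (0.0683) and 3 (0.0597), and chow replicates 8 (0.141) and 9 (0.145). When scaled by library totals, 4 of the 74 were higher in that comparison and 1 in STAM against chow. By complex, the medians for STAM + Atglistatin against STAM were 0.06 over 36 listed genes of complex I and 0.09 over 9 of complex III. They were 0.09 over 13 of complex IV and 0.00 over 16 of complex V. Complex II, which has no mitochondrially encoded subunit, had 0 of 4 passing in each comparison by the 3 tools. At an unadjusted p of 0.05, 1 of 4 was higher in each comparison against chow. Of all tested genes 7.24% were in STAM and 7.46% in STAM + Atglistatin.

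Genes that copy and transcribe mitochondrial DNA gave 0 calls. None of 21 tested genes of mitochondrial DNA transcription and maintenance passed in any of the 3 comparisons with edgeR, DESeq2 or limma-voom. At an unadjusted p of 0.05, 1 was higher, in STAM against chow, where 7.24% of all tested genes were. Tfam, which packages mitochondrial DNA and starts its transcription, had 40.2 ± 4.08 CPM in STAM + Atglistatin, 44.8 ± 2.32 in STAM and 40.0 ± 4.61 in chow. Polrmt, the mitochondrial RNA polymerase, had 16.1 ± 4.70 CPM in STAM + Atglistatin, 16.7 ± 1.0 in STAM and 12.7 ± 1.55 in chow. Tfb2m, which helps the polymerase open promoters, had 4.93 ± 1.07 CPM in STAM + Atglistatin, 4.27 ± 2.30 in STAM and 5.80 ± 1.51 in chow. Ppargc1a, a coactivator of mitochondrial biogenesis, had 13.3 ± 3.24 CPM in STAM + Atglistatin, 14.0 ± 5.57 in STAM and 12.2 ± 4.70 in chow. None of these 4 passed in any comparison with edgeR.

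Among 20 genes of mitochondrial RNA processing and stability, 2 rose in STAM against chow, where 1.95% of all tested genes did, and none fell. Hsd17b10, part of the enzyme that cuts the 5′ ends of mitochondrial tRNAs, had 343 ± 29.6 CPM in STAM against 210 ± 25.4 CPM in chow, a change of 0.71 ± 0.14 on the log2 scale (edgeR adjusted p = 0.00433). Fastk, of which a mitochondrial form is known to keep the ND6 messenger stable, rose as well, at 0.74 ± 0.16 (edgeR adjusted p = 0.0109), but did not pass without STAM replicate 1 (adjusted p = 0.0634). The list's median was 0.19 in that comparison, and library totals gave 4 higher genes, against 3 with DESeq2 and 3 with limma-voom. In STAM + Atglistatin against STAM 0 of 20 passed with edgeR, 1 with DESeq2 and 1 with limma-voom. At an unadjusted p of 0.05, 2 were lower, against 5.06% of all tested genes. Hsd17b10 was at -0.53 ± 0.14 there (edgeR adjusted p = 0.0591). Lrpprc, which with Slirp holds mitochondrial messengers stable, had 244 ± 67.6 CPM in STAM + Atglistatin, 266 ± 23.2 in STAM and 189 ± 15.3 in chow. Slirp had 87.2 ± 2.61 CPM in STAM + Atglistatin, 82.1 ± 10.7 in STAM and 72 ± 5.25 in chow. Mtpap, the mitochondrial poly(A) polymerase, had 11.7 ± 4.41 CPM in STAM + Atglistatin, 11.6 ± 1.56 in STAM and 13.4 ± 5.01 in chow. None of these 3 passed in any comparison with edgeR.

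With edgeR 1 of 10 biogenesis regulators passed. Over all tested genes 2.1% were called higher in STAM + Atglistatin against chow and 1.95% in STAM against chow. The regulator that passed was Esrra, a nuclear receptor that drives genes of oxidative metabolism. It was higher in STAM + Atglistatin than in chow, with 19.9 ± 0.529 CPM in STAM + Atglistatin against 11.1 ± 0.433 CPM in chow, a change of 0.84 ± 0.20 on the log2 scale (edgeR adjusted p = 0.0208), and higher in STAM than in chow, with 19.6 ± 3.55 CPM, by 0.82 ± 0.20 (edgeR adjusted p = 0.0254). The call against chow was lost in STAM without STAM replicates 1 (adjusted p = 0.171) or 2 (0.0601) or chow replicates 7 (0.0526), 8 (0.0686) or 9 (0.082), and in STAM + Atglistatin without its replicates 4 (0.0658) or 5 (0.0765) or chow replicates 8 (0.0608) or 9 (0.0777). Of 12 mitochondrial translation factors none passed in any comparison with edgeR, DESeq2 or limma-voom. At an unadjusted p of 0.05, 1 was higher in STAM against chow, where 7.24% of all tested genes were. In STAM + Atglistatin against chow 2 were lower by that measure, where 7.36% of all tested genes were.

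The 5 nuclear genes whose log2 CPM over the 9 libraries lay closest to that of the summed members were Hykk, Nlrp6, D130020L05Rik, Srsf11 and Afg3l1, chosen from 7775 genes by the root mean square difference of centred values. Hykk was nearest, at 0.074 on the log2 scale, with 76.7 ± 2.53 CPM in STAM + Atglistatin, 98.1 ± 4.71 in STAM and 71.8 ± 10.3 in chow. Afg3l1, the fifth, was at 0.099, with 81.8 ± 2.28 CPM in STAM + Atglistatin, 97.8 ± 6.33 in STAM and 81.7 ± 2.29 in chow. The summed members varied by 0.204 around their own mean, and the median difference of the 7775 genes was 0.316.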

How the data were processed

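Liver RNA of 9 mice was analysed from raw read counts per gene, deposited by the authors in 1 table with the sums per group, which equalled the 3 libraries. Reads were aligned with STAR to GRCm38, per the submitters' processing notes. No source used here states the counting tool or how strand and multi-mapped reads were handled. Groups follow the sample titles, which the treatment label contradicts for chow and STAM. The authors' own comparisons were not used. The 7 ribosomal RNA entries (0.26 to 0.529% of counts) were left out. The tests used edgeR 4.0.16 under R 4.3.3, with TMM, a filterByExpr filter by group, 1 quasi-likelihood fit to all 9 libraries, Benjamini-Hochberg adjustment over 12660 genes, threshold 0.05. The common biological coefficient of variation was 0.236. Values are CPM as mean ± SD of n = 3, or log2 fold changes ± SE. Alternatives were DESeq2 1.42.0, limma 3.58.1 voom, other scalings, no filter, the 2 groups alone, and each library left out. Messengers were compared with nuclear transcripts of GENCODE M21 by exact 50-base windows. Members and gene lists were chosen with earlier results of these data known. Genes named from lists are those that passed (at most 3 a direction and comparison, by smallest p), the 5 closest in pattern, and Tfam, Polrmt, Tfb2m, Lrpprc, Slirp, Mtpap and Ppargc1a.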

Additional observations from a re-analysis of the deposited data

How the results depend on the processing

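mt-Nd5 passed in each of 16 alternatives in STAM + Atglistatin against STAM and in STAM against chow, and no alternative reversed a member that had passed. In STAM + Atglistatin against STAM the members passing were 1 with edgeR, 2 with library totals in place of TMM and with DESeq2 (mt-Co1 added), and 3 with no count filter, with limma-voom and with only the 2 groups (mt-Co1 and mt-Nd2 added). Leaving out each library gave 1 to 3, with 3 without chow replicate 7 and 2 without chow replicate 9. In STAM against chow they were 2 with edgeR, 5 with library totals (mt-Nd1, mt-Cytb and mt-Co1 added), 4 with DESeq2 (mt-Nd1 and mt-Cytb) and 3 with limma-voom (mt-Nd1), and leaving out each library gave 1 to 2, with 1 without STAM replicate 2, STAM replicate 3 or chow replicate 8. In STAM + Atglistatin against chow they were 0, and 1 (mt-Nd1) with library totals; leaving out each library gave 0. The causes were not tested. Library totals moved the all-gene median of STAM against chow to 0.09 and its calls to 347 higher and 205 lower, against 247 and 252 with TMM, and those of STAM + Atglistatin against chow to 359 and 184, against 266 and 250. Leaving mitochondrial rows out of the scaling gave 1, 2 and 0. Without the 10 most abundant nuclear genes in the total, the members' share averaged 10.5% in STAM + Atglistatin, 12.8% in STAM and 9.54% in chow. With those genes kept in, the averages were 9.02, 11.2 and 7.95% in the same order. Leaving out each library of the group then gave 8.67 to 9.22, 11 to 11.3 and 7.56 to 8.28%. No paired analysis was possible because the groups share no replicate numbers. At 3 mice a group mt-Nd6 had an SE of 0.37, and mt-Co2, mt-Co3 and mt-Atp6 could not be compared.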

Other observations

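Of 22 rows for mitochondrial tRNAs, 10 had enough counts to be tested, and 2 of them, mt-Ti and mt-Ta, were called lower in STAM than in chow, against 1.99% of all tested genes. The other 8 did not pass. All 10 had log2 fold changes below 0 there, with a median of -0.64 (50.1% of all tested genes were below 0), which was -0.28 over 11 rows without STAM replicate 3. Leaving out each library gave 1 to 4 calls in the lower direction, with 4 without chow replicate 7 and 1 without STAM + Atglistatin replicate 4, STAM replicates 2 or 3 or chow replicates 8 or 9. In STAM + Atglistatin against chow 9 of 10 were below 0, with a median of -0.68, and 1 was called lower, mt-Ta, against 1.97% of all tested genes. mt-Ti, the isoleucine tRNA that follows mt-Nd1 and overlaps its last 2 bases, had 2.96 ± 1.07 CPM in STAM against 12.1 ± 5.82 CPM in chow, a change of -2.02 ± 0.39 on the log2 scale (edgeR adjusted p = 0.00459). mt-Ta, the alanine tRNA on the opposite strand, was lower in STAM than in chow, at -1.12 ± 0.29 (edgeR adjusted p = 0.0378) and lower in STAM + Atglistatin than in chow, at -1.66 ± 0.30 (edgeR adjusted p = 0.00279), with 7.92 ± 1.76 CPM in STAM + Atglistatin, 11.5 ± 3.76 in STAM and 25.1 ± 8.64 in chow. The first of these mt-Ta calls was lost with library totals (adjusted p = 0.0662), with only the 2 groups (0.0568) and without STAM + Atglistatin replicate 4 (0.0515), STAM replicates 2 (0.146) or 3 (0.186) or chow replicates 8 (0.153) or 9 (0.178). In STAM + Atglistatin against STAM 0 of 10 passed with edgeR, 1 with DESeq2 and 0 with limma-voom. At an unadjusted p of 0.05, 1 was higher, mt-Ti, against 5.09% of all tested genes. Libraries of polyadenylated RNA are not made to hold mature tRNAs, and what these reads are was not tested.

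The ribosomal RNAs of the mitochondrion were almost uncounted, with 2 counts for mt-Rnr1 and 5 for mt-Rnr2 over 9 libraries. The table has further entries for the same sequences among its 7 ribosomal entries, and these held 5 counts (12S) and 0 counts (16S). The copy genes on chromosomes 1 and 2 held few counts as well: Gm13341, which shares 224 windows of 50 bases with mt-Co2, had 231 counts, and Gm13340, which shares 411 with mt-Co1, had 197.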
